A study of Mus musculus with 36 samples.

Results

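Mid-course carbon tetrachloride (CCl4) injury was read from 6 mouse livers taken after 6 months of CCl4, set against 6 livers from month 2 oil controls and 6 from month 12 oil controls. These 18 libraries are part of a series of 36. They were chosen by their titles, and the reference was the mean of both oil groups on the log scale, because the series has no oil group at month 6. All groups were male C57BL/6N mice that were 8 to 10 weeks old at the start. The CCl4 mice received CCl4 in olive oil at 1 g/kg by intraperitoneal injection 2 times a week, and the oil mice received olive oil alone in the same way. Tissue was taken 6 days after dosing ended, so every group was sampled after an injection-free interval. The month 2 oil mice were therefore younger, and the month 12 oil mice older, than the CCl4 mice, and age cannot be told apart from treatment in either comparison alone. A change is called held here when it passed the test against the mean of the oil groups and, in the same direction, against each oil group separately. The labels number the replicates 1 to 6 and do not state that each is a separate animal, so the p-values measure only the spread between these samples.

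CCl4 is converted in pericentral hepatocytes by cytochrome P450 enzymes, chiefly Cyp2e1, to a radical that kills those cells, and repeated dosing drives regeneration, inflammation and scarring. Scar matrix is laid down by activated hepatic stellate cells, and dead cells are cleared by resident Kupffer cells and by macrophages recruited from blood monocytes. Male mouse hepatocytes also carry a sex-biased programme set by pulsed growth hormone, whose best known products are the major urinary proteins (Mup), small secreted pheromone carriers encoded by a cluster of near-identical genes on chromosome 4.

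The Mup genes hold both deep held falls and members that did not pass the test, so the DNA just before the start of 7 of them is shown. Each line gives the 100 bases that precede the TATA box, 5′ to 3′ on the coding strand, with the TATA box in capitals. Mup19, Mup17, Mup15 and Mup21 fell in the CCl4 livers, and Mup18, Mup10 and Mup3 did not pass the test. These genes, and the choice of the TATA box as anchor, were made after the values were seen.
Mup19: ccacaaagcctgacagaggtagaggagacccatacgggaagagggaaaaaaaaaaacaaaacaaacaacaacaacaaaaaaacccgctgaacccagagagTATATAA
Mup17: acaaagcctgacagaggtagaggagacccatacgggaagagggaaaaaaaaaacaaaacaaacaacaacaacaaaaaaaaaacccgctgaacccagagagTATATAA
Mup15: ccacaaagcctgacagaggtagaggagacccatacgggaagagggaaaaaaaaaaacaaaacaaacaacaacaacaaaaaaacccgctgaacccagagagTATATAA
Mup21: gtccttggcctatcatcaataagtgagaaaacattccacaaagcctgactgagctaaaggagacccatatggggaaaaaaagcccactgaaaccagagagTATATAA
Mup18: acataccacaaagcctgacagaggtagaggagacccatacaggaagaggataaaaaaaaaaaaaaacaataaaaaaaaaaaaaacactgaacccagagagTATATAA
Mup10: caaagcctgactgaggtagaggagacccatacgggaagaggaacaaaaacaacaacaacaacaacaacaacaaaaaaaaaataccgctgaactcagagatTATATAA
Mup3: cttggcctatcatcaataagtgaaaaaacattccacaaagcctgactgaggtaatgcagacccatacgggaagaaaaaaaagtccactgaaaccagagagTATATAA
The sequences are from RefSeq on GRCm38.p6, minus strand, at chr4:61782249-61782355 for Mup19, chr4:61595851-61595957 for Mup17, chr4:61439723-61439829 for Mup15, chr4:61674116-61674222 for Mup18, chr4:60582179-60582285 for Mup10, chr4:62087322-62087428 for Mup3 and chr4:62150843-62150949 for Mup21. Over these 107 bases Mup15 and Mup19 were identical (100% of aligned columns), and Mup17 matched Mup19 in 94.5% of columns, with 0 mismatches and 6 gap columns. Mup18 matched Mup19 in 84.8% and Mup10 in 86.5%, each with 7 mismatches. Mup3 matched Mup19 in 48.9%, with 7 mismatches and 64 gap columns. Mup21, which was held lower, matched the uncalled Mup3 in 89.1%, with 6 mismatches and 6 gap columns. It matched Mup19 in 45.8%, with 7 mismatches and 70 gap columns. Gap columns count against the percentage, so the low values come mostly from gaps. Whether these differences bear on the expression values was not tested.

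Each value below is the normalised count of one liver in CPM, which is counts scaled to library size with TMM factors, and a group of 6 is given by its lowest, median and highest liver. The 18 libraries held 19403247 to 28917545 counts. Albumin (Alb) lay between 33651 and 71395 CPM. Several libraries carried pancreas transcripts: the summed level of the 20 pancreas markers was 33 to 25133 CPM in month 2 oil, 132 to 45699 in month 12 oil and 12.3 to 12846 in CCl4 month 6. None of the 19 tested pancreas genes was called, and their median log2 fold change was -1.91. Month 12 oil replicate 2 and CCl4 month 6 replicate 2 stood apart in a different way, each being the highest of its group for several of the matrix genes below. Without CCl4 month 6 replicate 2 the number of held genes was 354, and without month 12 oil replicate 2 it was 913, in place of 600. With the 7 libraries of over 10000 CPM of pancreas transcripts left out, which leaves 3 oil livers in each group and 5 CCl4 livers, 151 genes were held (59 higher, 92 lower), 131 of them among the 600.

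Against the mean of the oil groups 1746 of 15338 tested genes changed, which is 11.4% of the genes tested (edgeR quasi-likelihood test, Benjamini-Hochberg adjusted p below 0.05). Of these, 1182 were higher (7.71%) and 564 lower (3.68%) in the CCl4 livers. Against month 2 oil alone 1306 genes changed (8.51%), 908 of them higher (5.92%) and 398 lower (2.59%). Against month 12 oil alone 1115 genes changed (7.27%), 657 of them higher (4.28%) and 458 lower (2.99%). Held against both were 600 genes (3.91%), of which 401 were higher (2.61%) and 199 lower (1.3%). These shares over all tested genes are the reference for each list count below. A held gene moved by a median of 0.84 on the log2 scale when higher and -1.14 when lower, and 126 higher and 101 lower genes moved at least 2-fold against each oil group. Fold changes are relative to the median gene after TMM scaling. Scaling by library totals alone shifted the median of all tested genes by 0.31 on the log2 scale and gave 8884 higher and 177 lower genes in place of 1182 and 564. Values after ± are approximate standard errors of the log2 fold change. Each is the absolute log2 fold change divided by the square root of the quasi-likelihood F statistic. Its estimate of spread comes from the fit of all 36 libraries in 6 groups, not from the compared livers alone.

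The requirement that a change hold against both groups removed most calls. Of the 1182 genes higher than the oil mean, 405 passed against month 2 oil only, 170 against month 12 oil only and 206 against neither group alone. Of the 564 lower genes, 131 passed against month 2 oil only, 166 against month 12 oil only and 68 against neither. A single gene called against the mean had opposite signs against the 2 oil groups. Individual livers were also compared: in 278 genes (1.81%) all 6 CCl4 livers lay beyond all 12 oil livers, 133 above and 145 below, and 112 and 113 of these were held. Without month 12 oil replicate 2 that number was 470.

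**Figure D1:**
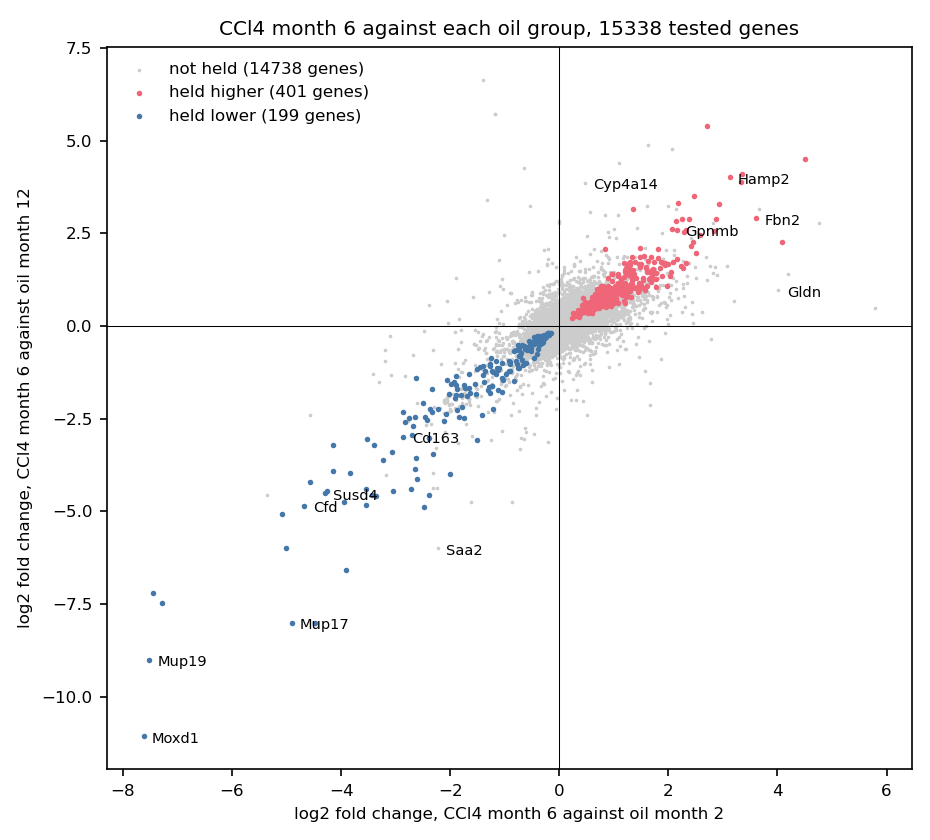
Log2 fold change of CCl4 month 6 against month 2 oil (x axis) and against month 12 oil (y axis), one point per tested gene, with the 401 genes held higher in red, the 199 held lower in blue and all others in grey. Both axes share the same 6 CCl4 livers, so their joint slope is not a result. Mup19 and Moxd1 lie far down on both axes, whereas Cyp4a14, Gldn and Saa2 lie far out on one axis and are not held.

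Male-biased hepatocyte genes fell in the CCl4 livers. Of 36 tested genes with higher expression in male than in female mouse liver, 23 fell against the oil mean and 20 were held, with none higher. The 20 include Mup1, Mup2, Mup7, Mup11, Mup12, Mup15, Mup17, Mup19 and Mup21. Reads may be shared between these close paralogues, so they are not independent members of the count. The list median was -1.62 on the log2 scale, beside -0.0016 over all tested genes. Of all tested genes 3.68% fell and 1.3% were held lower. Each of the 18 fits that left out one liver of the compared groups held between 17 and 21 of these genes, and 13 were held without the pancreas-rich libraries.

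Among the 20 Mup genes tested, 14 were held lower, 1 (Mup8) was called against the mean but not held, and 5 were not called. The summed level of all 20 was 74316 to 109469 CPM (median 96959) in the month 2 oil livers, 115194 to 264406 CPM (median 177067) in the month 12 oil livers and 23016 to 50182 CPM (median 32725) in the CCl4 livers. These 3 groups did not overlap: the older oil livers were the highest and the CCl4 livers the lowest. In the month 0 controls the sum was 29064 to 90675 CPM (median 48516). At CCl4 month 2 it was 23573 to 58669 CPM (median 35537). Both ranges overlapped that of the CCl4 livers compared with oil here, and the month 0 range also overlapped that of month 2 oil.

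Mup19 had 6259 to 11413 (median 10288) CPM in the month 2 oil livers, 11756 to 40126 (median 25320.0) in the month 12 oil livers and 7.24 to 141 (median 21) in the CCl4 livers. The lowest oil liver lay far above the highest CCl4 liver, and the log2 fold change was -8.26 ± 0.96 (adjusted p = 2.7e-07), or -7.52 against month 2 oil and -9.01 against month 12 oil. Mup7 had 19769 to 32708 (median 30346) CPM in the month 2 oil livers, 35804 to 65990.4 (median 48737) in the month 12 oil livers and 328 to 6998 (median 781) in the CCl4 livers, a change of -3.97 ± 0.67 (adjusted p = 0.00013). Again no CCl4 liver reached the oil range, although the CCl4 livers differed widely among themselves. Mup17, Mup15, Mup12 and Mup9 changed by -6.46, -6.25, -5.50 and -5.24 against the oil mean, all with complete separation of the livers. Mup9 and Mup13 were also 2 of the 11 genes that differed between the oil groups, with Mup9 higher by 2.67 in month 12 oil than in month 2 oil.

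Mup18 showed the opposite end of the family: it had 3584 to 6285 (median 3969) CPM in the month 2 oil livers, 3834 to 6873 (median 4844) in the month 12 oil livers and 4646 to 6346 (median 5639) in the CCl4 livers, and its groups overlapped, with a log2 fold change of 0.21 ± 0.35 (adjusted p = 0.78). Mup10 had 10298 to 12476 (median 10939) CPM in the month 2 oil livers, 13540.0 to 19493 (median 15494) in the month 12 oil livers and 7528 to 12186 (median 9456) in the CCl4 livers, with overlap and a log2 fold change of -0.50 ± 0.37 (adjusted p = 0.43). The log2 fold change was -0.16 (adjusted p = 0.84) for Mup20 and -0.65 (adjusted p = 0.14) for Mup3, the latter with all CCl4 livers below all oil livers but without passing the test. In the fit of the 18 libraries alone both Mup3 (-0.65, adjusted p = 0.00015) and Mup10 (-0.51, adjusted p = 0.0034) passed. These genes share most of their sequence, so reads may have been assigned between them in error, and single-gene Mup values are less certain than the family sum.

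**Figure D2:**
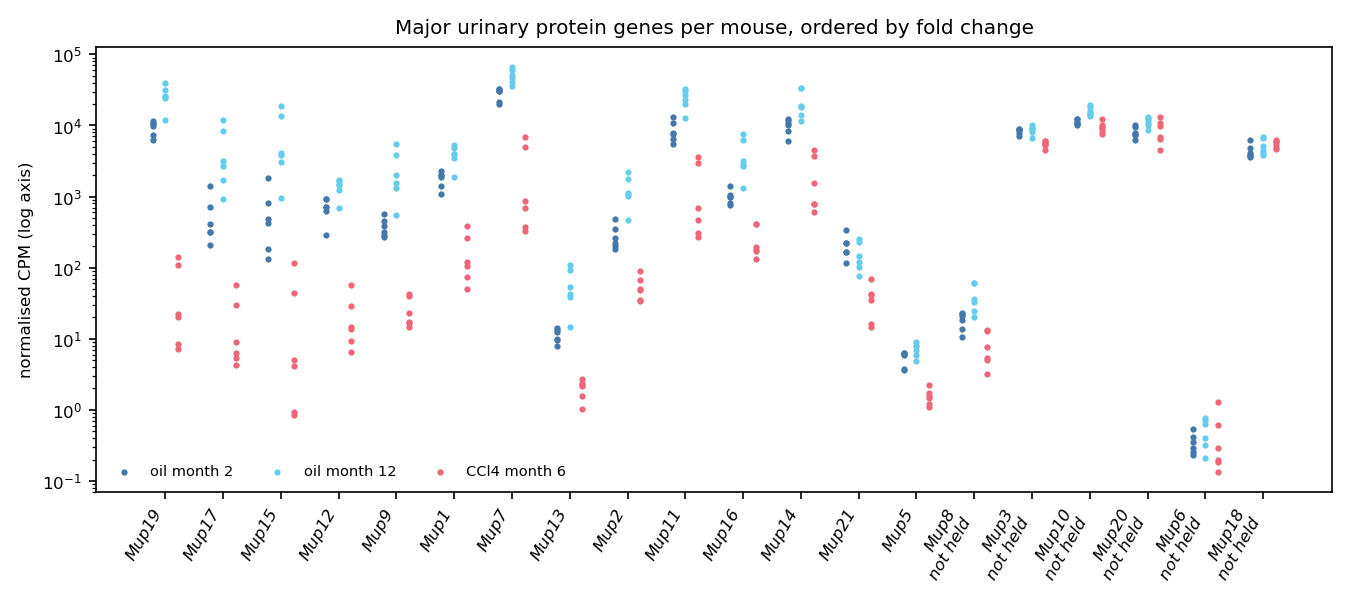
Normalised CPM (log axis) of the 20 Mup genes in each liver of the month 2 oil, month 12 oil and CCl4 month 6 groups, ordered from the deepest fall to the smallest change. Mup19 drops from at least 6259 CPM in oil to at most 141 in CCl4, whereas the oil and CCl4 points of Mup18, Mup20 and Mup10 overlap.

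Other male-biased genes outside the cluster fell with the same separation. Hsd3b5, a male-specific steroid dehydrogenase (chr3:98618634-98630252), had 249 to 381 (median 312) CPM in the month 2 oil livers, 254 to 422 (median 343) in the month 12 oil livers and 3.33 to 54.1 (median 15.5) in the CCl4 livers. Its log2 fold change was -3.90 ± 0.53 (adjusted p = 4.1e-06), near equal against each control age (-3.83 against month 2 oil and -3.97 against month 12 oil). Slco1a1, an organic anion uptake transporter, had 784 to 954 (median 829) CPM in the month 2 oil livers, 590.0 to 896 (median 729) in the month 12 oil livers and 42.7 to 208 (median 113) in the CCl4 livers, a change of -2.72 ± 0.28 (adjusted p = 3.5e-08). Cyp7b1, the oxysterol hydroxylase of the alternative bile acid pathway, had 292 to 639 (median 398) CPM in the month 2 oil livers, 423 to 976 (median 672) in the month 12 oil livers and 64.4 to 198 (median 111) in the CCl4 livers, a change of -2.15 ± 0.32 (adjusted p = 1.8e-05). No CCl4 liver overlapped an oil liver for any of these 3 genes.

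Susd4, which encodes a sushi-domain regulator of complement (chr1:182763860-182896591), had 21 to 34.4 (median 27.9) CPM in the month 2 oil livers, 29.5 to 38 (median 32) in the month 12 oil livers and 0.902 to 1.77 (median 1.44) in the CCl4 livers. Its log2 fold change was -4.41 ± 0.32 (adjusted p = 2.7e-11) and it was similar against each control age (-4.30 against month 2 oil and -4.52 against month 12 oil). Nxpe2, which belongs to the neurexophilin and PC-esterase family, had 18.8 to 29.8 (median 23) CPM in the month 2 oil livers, 17.8 to 24.1 (median 19.9) in the month 12 oil livers and 0.977 to 1.67 (median 1.37) in the CCl4 livers, a change of -4.03 ± 0.31 (adjusted p = 4.8e-11). Moxd1, a monooxygenase gene named after its values were seen, had 0.0456 to 47.7 (median 8.43) CPM in the month 2 oil livers, 64.3 to 350.3 (median 151) in the month 12 oil livers and 0 to 0.237 (median 0.0663) in the CCl4 livers. The lowest month 2 oil liver lay within the CCl4 range, so the groups overlapped, and the fall was held at -9.34, a value that rests on 13 counts summed over the 6 CCl4 livers. Nxpe2 is not on the male-biased list, nor is Capn8, a calpain protease gene, which fell by 4.19 on the log2 scale with complete separation.

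Female-biased hepatocyte genes moved in both directions. Of 39 tested, 11 were higher and 2 lower than the oil mean, and 6 and 2 were held, with a list median of 0.48. The shares over all tested genes were 7.71% higher, 3.68% lower, 2.61% held higher and 1.3% held lower. Without the pancreas-rich libraries none was held in either direction. The low-count filter used all 6 groups, and in the fit of the 18 libraries alone 31 were tested. Of those, 4 were held higher and 2 lower. With limma-voom neither Cyp2a22 (adjusted p = 0.36) nor Sult2a2 (adjusted p = 0.15) passed against the oil mean. Held higher were Cyp2a4, Cyp2a22, Sult2a2, Atp6v0d2, Rtn4 and Cd36. Several of these were near the detection limit: Cyp2a4, a steroid hydroxylase, had 0.0417 to 1.14 (median 0.206) CPM in the month 2 oil livers, 0 to 0.317 (median 0.158) in the month 12 oil livers and 0.370 to 2.55 (median 2.06) in the CCl4 livers. Sult2a2, a hydroxysteroid sulfotransferase, had 0 counts in all 12 oil livers and 18 counts summed over the 6 CCl4 livers, too few to give a fold change. Held lower were Cyp2c69 and Cyp2c40, close paralogues whose reads may be shared. Cyp2c69 had 2.09 to 17.6 (median 3.21) CPM in the month 2 oil livers, 2.96 to 19.6 (median 12.9) in the month 12 oil livers and 0.233 to 0.778 (median 0.505) in the CCl4 livers, and it fell by 3.97 with no overlap, whereas at CCl4 month 12 its median was 15.1.

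Drug-metabolising and pericentral enzymes fell in part. Of 26 cytochrome P450 genes of drug metabolism, 10 fell, none rose and 5 were held (list median -0.31). Over all tested genes 3.68% fell and 1.3% were held lower. The held ones were Cyp2c29, Cyp2c37, Cyp2c50, Cyp2c54 and Cyp2c67, arachidonic acid and drug oxidases in a cluster on chromosome 19. Cyp2c37 (chr19:39992424-40012243) had 211 to 516 (median 260.2) CPM in the month 2 oil livers, 159 to 374 (median 245) in the month 12 oil livers and 28.2 to 70.9 (median 47) in the CCl4 livers, without overlap, and its log2 fold change was -2.55 ± 0.32 (adjusted p = 1.1e-06). Cyp2e1, the main CCl4-activating enzyme, had 4503 to 6100.5 (median 5185) CPM in the month 2 oil livers, 3394 to 4606 (median 3867) in the month 12 oil livers and 1501 to 3883 (median 2933) in the CCl4 livers. It changed by -0.71 ± 0.24 (adjusted p = 0.044) against the mean but was not held, since its change against month 12 oil was -0.51 (adjusted p = 0.26). Its call against the mean was lost with limma-voom (adjusted p = 0.071) and with the replicate block (adjusted p = 0.070). The call was also lost in several of the fits that left out 1 library, such as that without CCl4 month 6 replicate 2 (-0.58, adjusted p = 0.16).

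Of 28 genes of pericentral hepatocytes, 10 fell and 2 rose, with 6 held lower and 1 (Car2, carbonic anhydrase) held higher, beside 1.3% of all tested genes held lower. Without the pancreas-rich libraries 2 were held lower and none higher, and the fit of the 18 libraries alone held 10 lower. Oat, ornithine aminotransferase, had 1030.0 to 1734 (median 1297) CPM in the month 2 oil livers, 885 to 1094 (median 966) in the month 12 oil livers and 182 to 453 (median 383) in the CCl4 livers, and fell by 1.77 with no overlap. Lhpp, a phosphatase gene, changed by -1.71 and was held. Glul, glutamine synthetase, the classic marker of the innermost pericentral ring, had 625 to 893 (median 807) CPM in the month 2 oil livers, 738 to 1118 (median 812) in the month 12 oil livers and 417 to 518 (median 466) in the CCl4 livers. All 6 CCl4 livers were below all 12 oil livers for Glul, yet the separate comparisons missed the threshold (-0.77, adjusted p = 0.12, against month 2 oil and -0.89, adjusted p = 0.067, against month 12 oil).

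In bile acid synthesis and transport, 6 of 27 genes fell, 1 rose and 4 were held lower. The shares over all tested genes were 3.68% lower and 1.3% held lower. Cyp8b1, the sterol 12-hydroxylase that sets the cholic acid share, had 162 to 290.4 (median 198) CPM in the month 2 oil livers, 171 to 285 (median 246) in the month 12 oil livers and 63.3 to 119.9 (median 80.1) in the CCl4 livers, a held change of -1.45 ± 0.31 (adjusted p = 0.0016). Slc22a7, an organic anion transporter, had 13.8 to 34.9 (median 18.1) CPM in the month 2 oil livers, 28.1 to 49.9 (median 44.1) in the month 12 oil livers and 5.33 to 11.4 (median 6.83) in the CCl4 livers, a held change of -1.91 ± 0.27 (adjusted p = 7.3e-06). Cyp7a1, the rate-limiting enzyme of the classic pathway, spread from 12.8 to 416 (median 214) CPM among the CCl4 livers and did not pass the test (-0.36, adjusted p = 0.77).

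**Figure D3:**
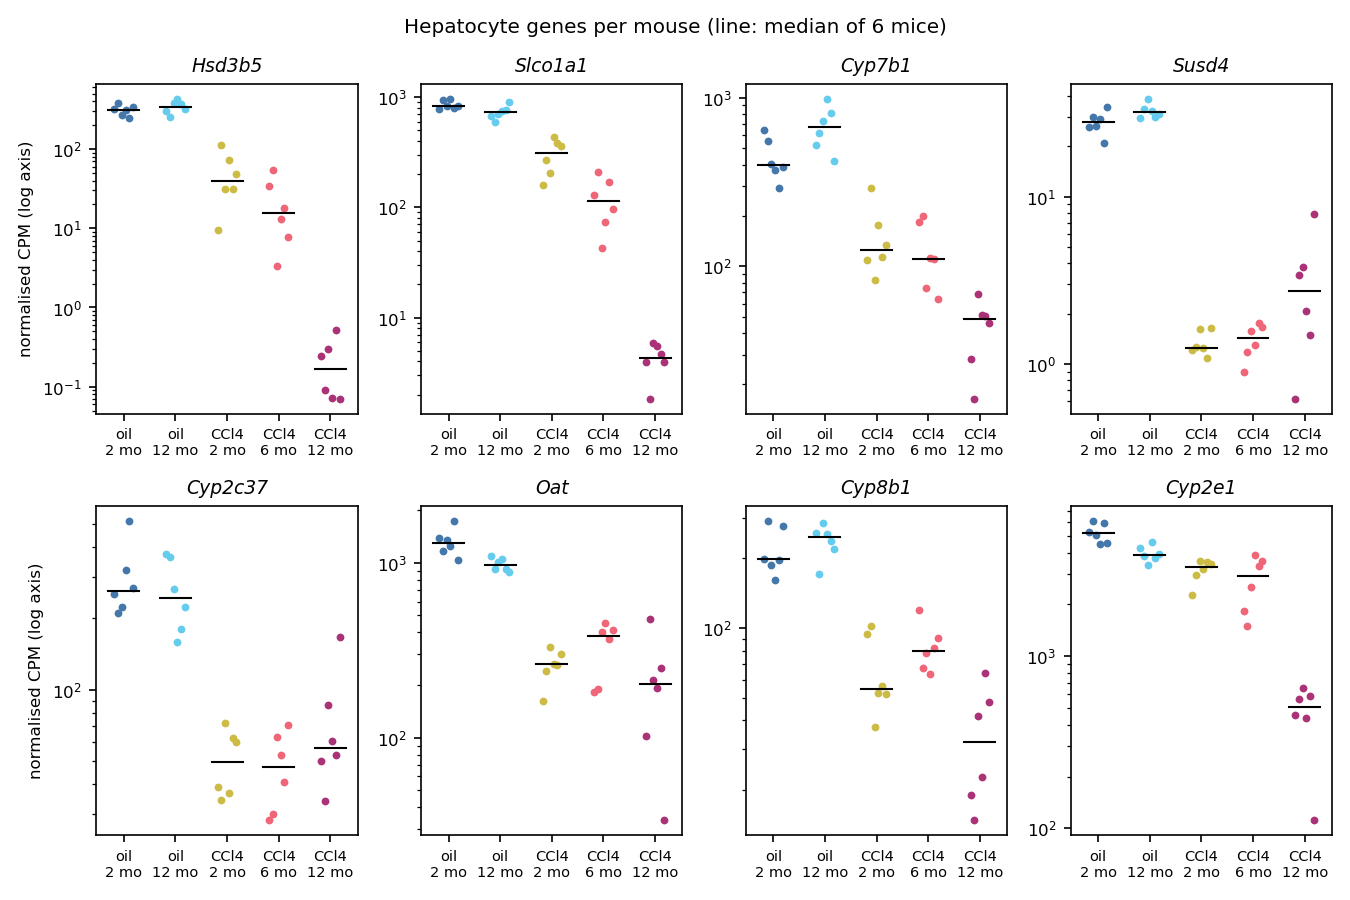
Normalised CPM (log axis) of 8 hepatocyte genes in each liver of both oil groups and of the CCl4 groups at months 2, 6 and 12, with a line at the median of 6 livers. The CCl4 month 6 points of Hsd3b5, Slco1a1, Cyp7b1, Susd4, Cyp2c37, Oat and Cyp8b1 lie below all oil points, and those of Cyp2e1 overlap the oil points.

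Macrophage genes split into a rise of recruited-type genes and a fall of a pair of Kupffer cell genes. Of 20 genes of monocyte-derived and lipid-associated macrophages, 15 rose, none fell and 14 were held, against 2.61% of all tested genes held higher. The list median was 1.00. The summed level of the list was 1456 to 1916 CPM in month 2 oil, 1529 to 1829 in month 12 oil and 1795 to 3351 in the CCl4 livers, so the lowest CCl4 liver lay within the oil range. In the month 0 controls the sum was 1794 to 2641.5 CPM, and at CCl4 month 2 it was 1658 to 2094.5. Both ranges overlapped that of CCl4 month 6. In whole-liver RNA, more cells of a type and more RNA per cell cannot be told apart. Without CCl4 month 6 replicate 2, 10 of the 20 were held, and without the pancreas-rich libraries 2 were.

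Gpnmb, a transmembrane glycoprotein of lysosome-rich macrophages (chr6:49036546-49070929), had 4.85 to 28.8 (median 9.67) CPM in the month 2 oil livers, 2.54 to 19.7 (median 11.2) in the month 12 oil livers and 45.2 to 112 (median 58.1) in the CCl4 livers. Every CCl4 liver exceeded every oil liver, and the log2 fold change was 2.37 ± 0.31 (adjusted p = 2.0e-06). Trem2, a lipid-sensing receptor, had 5.31 to 10.2 (median 6.43) CPM in the month 2 oil livers, 4.58 to 10.9 (median 7.15) in the month 12 oil livers and 9.64 to 23.9 (median 11.8) in the CCl4 livers, a held change of 0.94 ± 0.17 (adjusted p = 0.00019) with overlap at the edges. Cd63, a lysosomal tetraspanin, had 3.73 to 7.93 (median 5.71) CPM in the month 2 oil livers, 4.88 to 12.7 (median 6.22) in the month 12 oil livers and 12.7 to 32 (median 14) in the CCl4 livers, a held change of 1.41 ± 0.18 (adjusted p = 1.8e-06). Cx3cr1, the fractalkine receptor, had 1.27 to 2.88 (median 2.00) CPM in the month 2 oil livers, 1.90 to 3.36 (median 2.69) in the month 12 oil livers and 3.46 to 9.11 (median 4.50) in the CCl4 livers, and changed by 1.23 ± 0.19 (adjusted p = 4.1e-05). For Cx3cr1 and Cd63 the groups did not overlap. Lpl, lipoprotein lipase, had 29.7 to 58.3 (median 39.5) CPM in the month 2 oil livers, 38.5 to 56 (median 48.3) in the month 12 oil livers and 70.2 to 136 (median 82.3) in the CCl4 livers, a separated change of 1.01 ± 0.17 (adjusted p = 0.00015). Itgax, Lgals3, Cd68, Ccr2, Mmp12 and Ms4a7 were held at 1.59, 1.32, 0.74, 0.98, 1.36 and 1.24. Spp1, osteopontin, rose against the mean by 1.17 ± 0.35 (adjusted p = 0.024) but passed against neither oil group alone, and without CCl4 month 6 replicate 2 it was at 0.71 (adjusted p = 0.24).

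Among 16 Kupffer cell identity genes, 3 fell and 2 rose, and the held ones were Cd163 and Timd4, both lower. The list median was -0.064 on the log2 scale, with single genes from -2.92 to 1.035, so the list as a whole did not fall. The shares over all tested genes were 7.71% higher, 3.68% lower and 1.3% held lower. Cd163, the haptoglobin-haemoglobin scavenger receptor (chr6:124304656-124330527), had 30.1 to 43.4 (median 36.6) CPM in the month 2 oil livers, 33.9 to 51.2 (median 38) in the month 12 oil livers and 3.37 to 8.74 (median 4.45) in the CCl4 livers. The lowest oil liver exceeded the highest CCl4 liver more than 3-fold, and the log2 fold change was -2.92 ± 0.22 (adjusted p = 2.7e-11). Timd4, the phosphatidylserine receptor of long-lived resident macrophages, had 8.12 to 16.7 (median 8.96) CPM in the month 2 oil livers, 8.48 to 14.4 (median 10.3) in the month 12 oil livers and 0.931 to 7.50 (median 2.25) in the CCl4 livers, a separated change of -1.88 ± 0.40 (adjusted p = 0.0016). Clec4f, a lectin restricted to Kupffer cells, had 118 to 154 (median 132) CPM in the month 2 oil livers, 154 to 172 (median 165) in the month 12 oil livers and 76.2 to 131 (median 113) in the CCl4 livers and did not pass the test at -0.44 (adjusted p = 0.11). It passed in the fit of the 18 libraries alone (-0.45, adjusted p = 0.0048) and with the month 0 controls in the reference (-0.59, adjusted p = 0.012). The summed level of the 16 genes was 793 to 1006, 830.4 to 1081 and 649 to 1198 CPM in the same order, so the groups overlapped for the list as a whole.

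**Figure D4:**
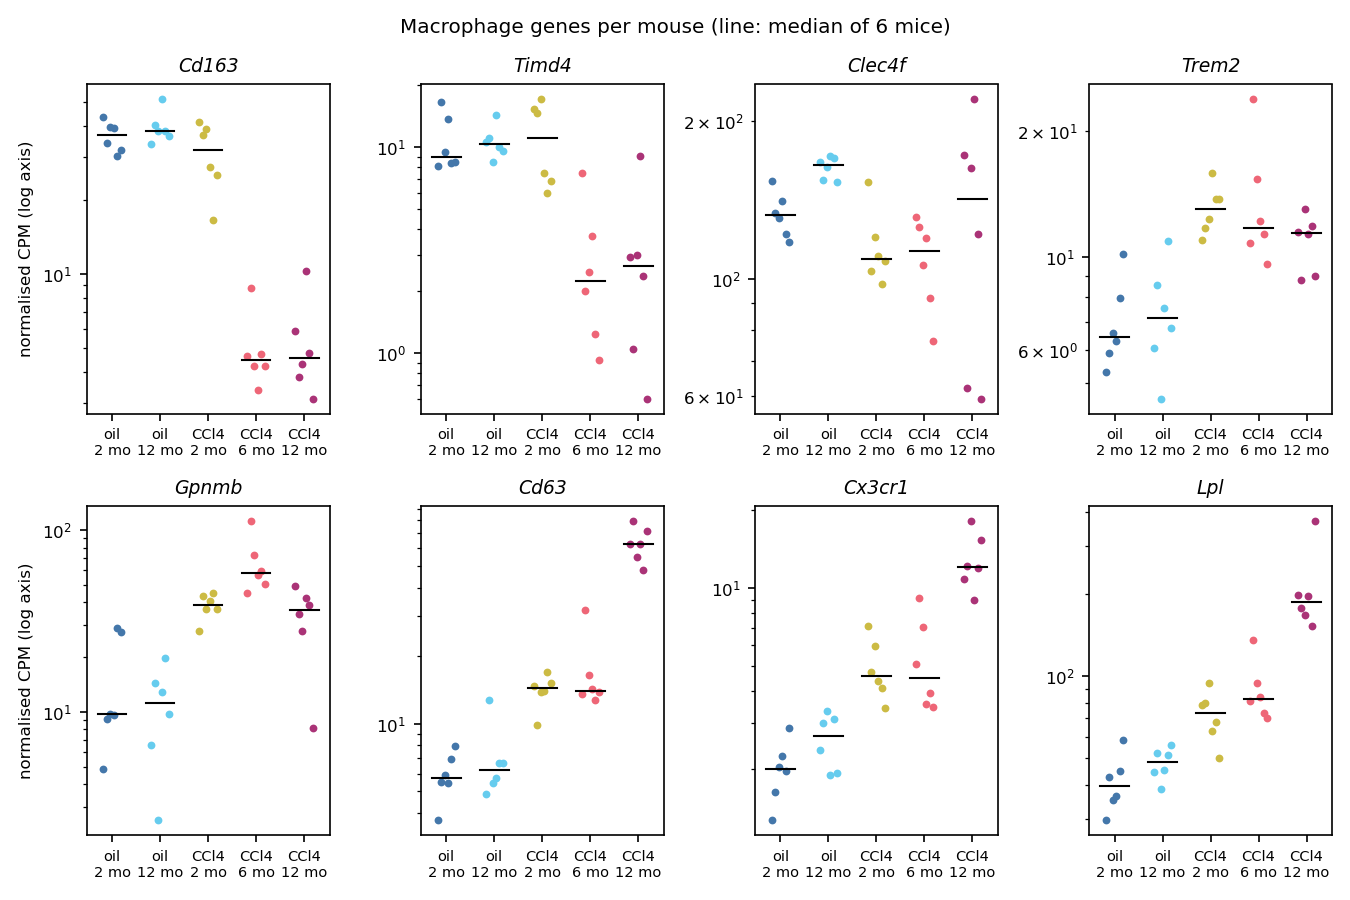
Normalised CPM (log axis) of 3 Kupffer cell genes (Cd163, Timd4, Clec4f) and 5 genes of recruited or lipid-associated macrophages in each liver of both oil groups and 3 CCl4 groups, with a line at the median of 6 livers. Cd163 and Timd4 are near oil levels at CCl4 month 2 and low at months 6 and 12, and Gpnmb is above all oil points at month 6.

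The counts of the other immune lists stand beside 7.71% of all tested genes called higher and 2.61% held higher. MHC class II genes rose against the mean in 5 of 10 (Cd74 0.60, H2-Ab1 0.71) and none was held, and the calls of Cd74 and H2-Ab1 were lost in several of the fits that left out one library. Of 20 lymphocyte genes, the natural killer receptors Ncr1 (1.97) and Klrd1 (1.02) were held higher and Cd4 (-1.22) held lower, all below 4 CPM in every oil and CCl4 month 6 liver. Of 11 neutrophil genes 5 rose and Csf3r, the G-CSF receptor, was held at 0.92; the list median was 1.38, or 1.68 against month 2 oil and 0.95 against month 12 oil. Of 18 chemokines 4 rose and Cxcl16 was held at 0.55. Of 20 interferon response genes 2 rose and none was held. Without CCl4 month 6 replicate 2 neither Csf3r nor Cxcl16 was held, and without the pancreas-rich libraries no gene of these 5 lists was.

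Part of the matrix genes rose, and list medians were higher against the younger controls. Of 14 collagens 8 rose and 3 were held, and the list median was 1.09 against month 2 oil and 0.68 against month 12 oil. Of 14 basement membrane genes 7 rose and 3 were held, of 20 proteoglycan and elastic fibre genes 10 rose and 3 were held, and of 13 collagen-processing enzymes 7 rose and 3 were held. No gene of these 4 lists fell. Over all tested genes 7.71% rose and 2.61% were held higher. The medians against month 2 and month 12 oil were 0.55 and 0.36 for basement membrane, 0.74 and 0.35 for proteoglycans, and 0.73 and 0.25 for processing enzymes. None of these genes was among the 11 that differed between the oil groups.

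The main scar collagens did not hold. Col1a1 had 5.90 to 29.1 (median 12.7) CPM in the month 2 oil livers, 6.65 to 47.7 (median 18.1) in the month 12 oil livers and 27.7 to 77.2 (median 37) in the CCl4 livers, and its log2 fold change was 1.60 (adjusted p = 0.0046) against month 2 oil and 0.80 (adjusted p = 0.18) against month 12 oil. Col3a1 had 64.9 to 163 (median 106) CPM in the month 2 oil livers, 55.7 to 278 (median 150.5) in the month 12 oil livers and 176 to 533 (median 216) in the CCl4 livers, a log2 fold change of 1.31 (adjusted p = 0.0058) against month 2 oil and 0.76 (adjusted p = 0.12) against month 12 oil. The highest month 12 oil liver lay inside the CCl4 range for both genes. Col1a2 was at 1.51 (adjusted p = 0.0016) against month 2 oil and 0.85 (adjusted p = 0.081) against month 12 oil. Timp1 (0.68, adjusted p = 0.42), Lox (0.70, adjusted p = 0.32) and Acta2 (-0.37, adjusted p = 0.4), textbook markers of activated myofibroblasts, did not pass against the oil mean. With the month 0 controls in the reference Timp1 (1.30, adjusted p = 0.038) and Lox (1.26, adjusted p = 0.018) passed. The same reference lost the calls of other named genes, which are given at the end. Acta2 had 5.53 to 13.7 (median 7.52) CPM in the month 2 oil livers, 4.35 to 12.9 (median 9.73) in the month 12 oil livers and 4.61 to 10.2 (median 6.36) in the CCl4 livers.

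The held matrix genes were others. Col6a3, a microfibrillar collagen (chr1:90765923-90843971), had 12.7 to 19.1 (median 14) CPM in the month 2 oil livers, 14.2 to 31.2 (median 21.5) in the month 12 oil livers and 33.9 to 55.2 (median 37.2) in the CCl4 livers, without overlap, and changed by 1.18 ± 0.13 (adjusted p = 6.8e-08). Col4a5, a basement membrane collagen, had 2.92 to 4.88 (median 3.40) CPM in the month 2 oil livers, 1.41 to 9.94 (median 3.46) in the month 12 oil livers and 10.6 to 17.1 (median 13.9) in the CCl4 livers, also without overlap, at 1.80 ± 0.23 (adjusted p = 1.8e-06). Lum, the small proteoglycan lumican, had 11.5 to 22.9 (median 17.4) CPM in the month 2 oil livers, 18.9 to 39.6 (median 22.5) in the month 12 oil livers and 40.2 to 76 (median 47.4) in the CCl4 livers, a separated change of 1.29 ± 0.17 (adjusted p = 1.7e-06). Fbn2, fibrillin 2 of elastic microfibrils, had 0.0440 to 0.192 (median 0.177) CPM in the month 2 oil livers, 0.0456 to 0.420 (median 0.272) in the month 12 oil livers and 1.21 to 2.81 (median 1.92) in the CCl4 livers, and rose by 3.26 ± 0.26 (adjusted p = 1.1e-10). All 6 CCl4 livers exceeded all 12 oil livers for Fbn2. Ltbp2, Lama2, Loxl2, Adamts2, Col5a2, Col14a1, Lamc1 and P3h2 were held at 1.70, 1.27, 0.85, 0.68, 1.03, 0.43, 0.48 and 0.60. Of the 18 fits that left out 1 library, Lamc1 was held in 4 and P3h2 in 5. Lama2 was held in all 18, Adamts2 in 15, and Loxl2, Col5a2 and Col14a1 in 14 each.

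Of 17 metalloproteinases and inhibitors, Mmp2 and Mmp12 rose and both were held. Mmp2, gelatinase A, had 2.31 to 6.47 (median 3.27) CPM in the month 2 oil livers, 3.21 to 13.6 (median 4.47) in the month 12 oil livers and 9.69 to 15.9 (median 12.7) in the CCl4 livers, a change of 1.41 ± 0.22 (adjusted p = 3.4e-05), with 1 oil liver inside the CCl4 range. Of 20 stellate cell and myofibroblast genes, 3 rose and 2 fell, beside 7.71% and 3.68% of all tested genes. Pdgfrb, the PDGF receptor of stellate cells, had 7.16 to 12.7 (median 9.17) CPM in the month 2 oil livers, 9.07 to 18.9 (median 9.95) in the month 12 oil livers and 15.9 to 23.4 (median 17.9) in the CCl4 livers, a held rise of 0.87 ± 0.13 (adjusted p = 3.0e-05). Hhip, an inhibitor that binds hedgehog ligands (chr8:79965851-80058006), had 5.27 to 7.30 (median 5.94) CPM in the month 2 oil livers, 5.09 to 8.20 (median 7.71) in the month 12 oil livers and 0.640 to 1.44 (median 0.895) in the CCl4 livers, a held and separated change of -2.83 ± 0.21 (adjusted p = 2.7e-11). Month 12 oil replicate 2 was the highest oil liver for Lum, Mmp2 and Pdgfrb, and without it 6 of 14 collagens were held. The number fell to 1 without month 12 oil replicate 3 or 4. Of the processing enzymes, the omission of CCl4 month 6 replicate 2, or of month 12 oil replicate 1 or 4, left 0 held, and that of month 12 oil replicate 3 left 1. Without the pancreas-rich libraries 0 metalloproteinases, 1 basement membrane gene, 1 proteoglycan gene, 1 processing enzyme and 2 collagens were held, and no stellate cell gene was held higher. Summed mesothelial markers were 792 to 952 CPM in month 2 oil, 931 to 1194 in month 12 oil and 803 to 1029 in the CCl4 livers, and their part in the matrix values was not tested.

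**Figure D5:**
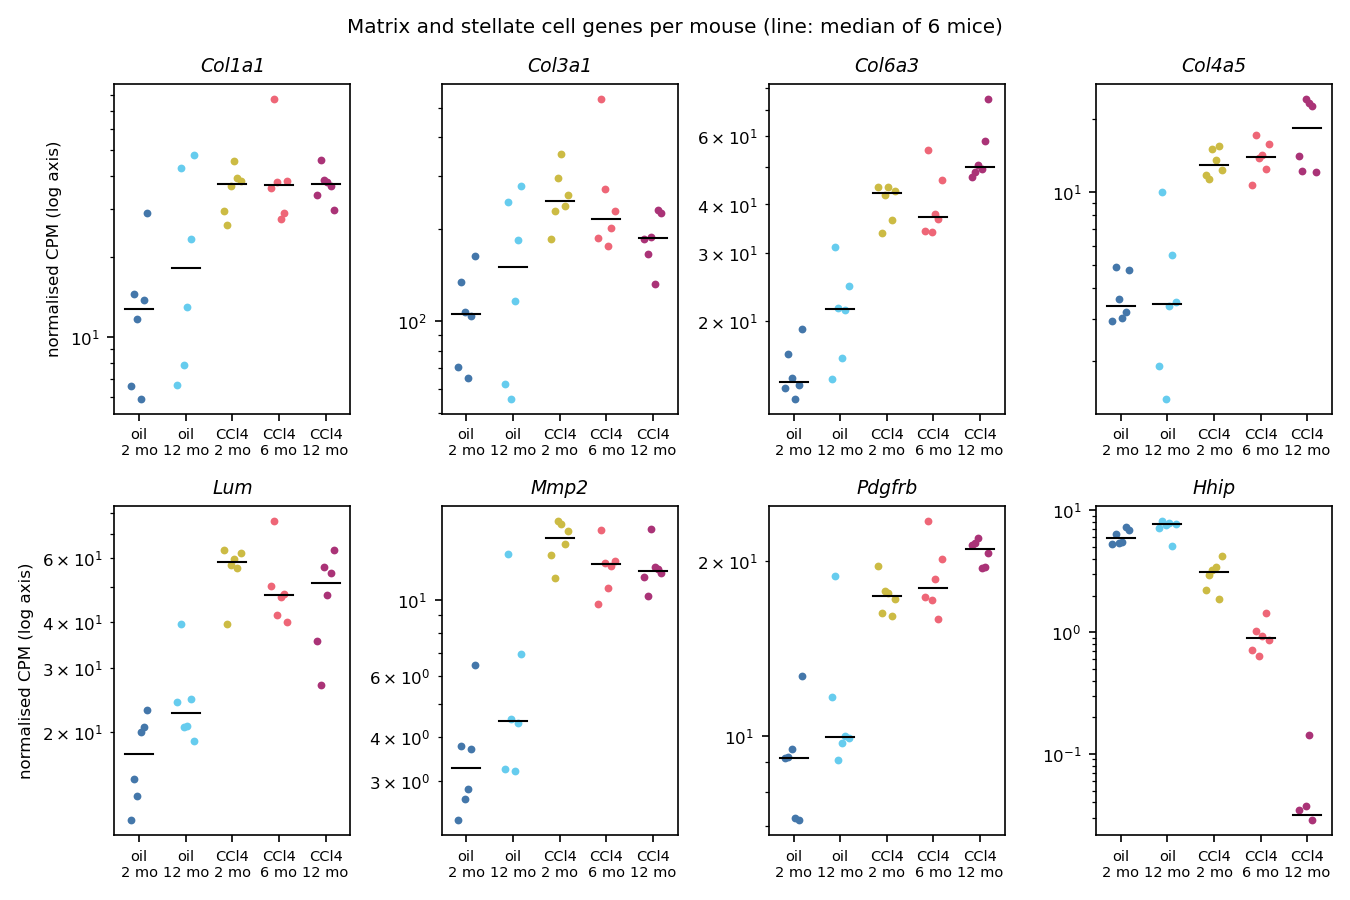
Normalised CPM (log axis) of 8 matrix and stellate cell genes in each liver of both oil groups and 3 CCl4 groups, with a line at the median of 6 livers. Col6a3, Col4a5 and Lum of CCl4 month 6 lie above all oil points, Col1a1 and Col3a1 overlap the month 12 oil points, and Hhip falls below all oil points; 2 CCl4 month 12 livers at 0 CPM of Hhip cannot be drawn on the log axis.

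Other held rises with full separation of livers were in genes at low level. Tinag, tubulointerstitial nephritis antigen, a basement membrane glycoprotein, had 0.0385 to 0.291 (median 0.220) CPM in the month 2 oil livers, 0 to 0.542 (median 0.0210) in the month 12 oil livers and 1.22 to 3.48 (median 1.76) in the CCl4 livers, and changed by 3.60 ± 0.50 (adjusted p = 7.3e-06). Scube1, Cdh19, Tcf24, Sytl5, Fhl2, Peg10, Esm1 and Sirpb1a followed at 2.70, 2.64, 2.52, 2.48, 2.46, 2.35, 2.26 and 2.00, and the highest CCl4 liver of any of them was at 8.41 CPM (Peg10). Cdkn2c, the cyclin-dependent kinase inhibitor p18, had 1.85 to 5.32 (median 2.46) CPM in the month 2 oil livers, 3.36 to 4.76 (median 3.73) in the month 12 oil livers and 6.93 to 11.8 (median 10.3) in the CCl4 livers, a separated change of 1.48 ± 0.16 (adjusted p = 9.7e-08). Cdkn1a, the p53 target p21, did not pass the test at 0.73 (adjusted p = 0.37).

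Among 19 annexins, S100 proteins and other injured-epithelium genes, 13 rose, none fell and 7 were held, with a list median of 0.73. Over all tested genes 7.71% rose and 2.61% were held higher. Anxa5, annexin A5 (chr3:36448923-36475894), had 59.3 to 71.1 (median 65) CPM in the month 2 oil livers, 67 to 73.9 (median 72.5) in the month 12 oil livers and 102 to 142 (median 109) in the CCl4 livers, a separated rise of 0.73 ± 0.073 (adjusted p = 1.6e-08). Ly6d, a lymphocyte-antigen family surface protein that injured hepatocytes can express, had 0.538 to 2.07 (median 1.17) CPM in the month 2 oil livers, 0.544 to 1.82 (median 1.13) in the month 12 oil livers and 2.89 to 31.8 (median 4.44) in the CCl4 livers, a rise of 2.88 ± 0.45 (adjusted p = 3.6e-05) in which CCl4 replicate 2 was the highest liver. Anxa3, S100a4 and Vim were held at 0.79, 1.35 and 0.89. Leaving out CCl4 month 6 replicate 2, or month 12 oil replicate 1 or 3, left 3 held. Leaving out CCl4 month 6 replicate 3 or month 12 oil replicate 4 left 4, and leaving out month 12 oil replicate 2 left 12. Without the pancreas-rich libraries 2 were held.

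In lipid metabolism, 6 of 26 genes of fatty acid and triglyceride synthesis rose, none fell, and Acaca and Scd2 were held. The shares over all tested genes were 7.71% higher and 2.61% held higher. Acaca, acetyl-CoA carboxylase, had 147 to 205 (median 185) CPM in the month 2 oil livers, 119 to 177 (median 139.6) in the month 12 oil livers and 219 to 276 (median 247) in the CCl4 livers, a separated rise of 0.60 ± 0.098 (adjusted p = 7.4e-05). Scd2, a stearoyl-CoA desaturase with little expression in adult liver, had 7.26 to 12.7 (median 9.11) CPM in the month 2 oil livers, 8.93 to 18.3 (median 11.6) in the month 12 oil livers and 19.8 to 38.6 (median 31.5) in the CCl4 livers, a separated rise of 1.5 ± 0.19 (adjusted p = 1.0e-06). Fasn, fatty acid synthase, missed the threshold against the mean (0.75, adjusted p = 0.053) and passed against month 12 oil (0.99, adjusted p = 0.042). Against the mean Fasn passed with DESeq2 (adjusted p = 0.034), with a filter of 1 CPM in 6 libraries and in the fit of the 18 libraries alone (both adjusted p = 0.048). Acly passed in no comparison (0.42, adjusted p = 0.21 against the mean). Cd36, a fatty acid translocase, had 43.9 to 150.4 (median 59.4) CPM in the month 2 oil livers, 41.3 to 69.1 (median 60.2) in the month 12 oil livers and 123 to 231 (median 128) in the CCl4 livers, a held rise of 1.18 ± 0.18 (adjusted p = 3.2e-05) with 1 oil liver inside the CCl4 range. Fitm1, a lipid droplet protein gene, was held lower at -3.68.

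Of 11 tested adipocyte markers 4 fell, none rose and 3 were held, beside 1.3% of all tested genes held lower. Cfd, adipsin, had 1.85 to 6.98 (median 3.38) CPM in the month 2 oil livers, 0.635 to 10.2 (median 3.86) in the month 12 oil livers and 0 to 0.404 (median 0.119) in the CCl4 livers, and was held at -4.76 with full separation. Adipoq, adiponectin, had 0.363 to 4.15 (median 0.993) CPM in the month 2 oil livers, 0.0907 to 2.90 (median 0.709) in the month 12 oil livers and 0 to 0.237 (median 0.0331) in the CCl4 livers, and was held at -4.40. Retn, resistin, was held at -2.30. Lep and Ucp1 had 0 counts in all 6 CCl4 livers. The 14 adipose markers together ran from 2076 to 5406 CPM in the CCl4 livers against 4046 to 5495 and 2941 to 4796 in the oil groups, which overlap. The part of adherent fat in the Cfd, Adipoq and Retn values was not tested.

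Plasma protein genes moved in both directions. Their counts stand beside 7.71% of all tested genes higher, 3.68% lower, 2.61% held higher and 1.3% held lower. Of 33 acute phase genes 7 fell and 3 rose, with Saa4 (constitutive serum amyloid A, -1.23) held lower and Hamp2 held higher. Both held counts are near the shares over all tested genes. Hamp2, a hepcidin paralogue (chr7:30922372-30924681), had 3.27 to 6.84 (median 4.63) CPM in the month 2 oil livers, 1.41 to 5.25 (median 1.94) in the month 12 oil livers and 5.28 to 77.1 (median 44.1) in the CCl4 livers, a held rise of 3.56 ± 0.45 (adjusted p = 1.3e-06), although the lowest CCl4 liver was within the oil range. Of 29 complement genes 9 fell and 2 rose, and C3ar1 (higher), Cfd and Susd4 (lower) were held. Of 28 coagulation genes 5 fell and 4 rose, and F7 (-0.38) and F10 (-0.31) were held lower, beside 1.3% of all tested genes. No coagulation gene was held without CCl4 month 6 replicate 2 or without the pancreas-rich libraries. Alb was at -0.36 (adjusted p = 0.12) against the oil mean, and passed without month 12 oil replicate 2 (-0.42, adjusted p = 0.046). Lifr, the leukaemia inhibitory factor receptor, was held lower at -0.86, and Tfr2, the iron-sensing receptor, at -0.33.

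Several lists had no held gene by edgeR, and none by DESeq2 either. In the core clock list 0 of 19 genes changed, with 1 at an unadjusted p below 0.05. Among 24 hepatocyte transcription factors 1 fell (3 at that unadjusted p), and among 30 cell cycle genes 1 rose (5). Over all tested genes 3756 (of 15338) reached it. Mki67 was at 0.50 (adjusted p = 0.24), Krt19 at 0.57 (adjusted p = 0.42), Nqo1 at 0.40 (adjusted p = 0.16) and Fgf21 at 0.24 (adjusted p = 0.77). Gstm3, an NRF2-responsive glutathione transferase, rose against the mean by 0.73 but missed against month 12 oil (0.66, adjusted p = 0.099). Of 36 glutathione and NRF2 target genes 5 rose, 1 fell and Cbr3 alone was held, at 1.22. That held count is near the 2.61% of all tested genes held higher. Of 27 genes of fetal liver and liver tumours, 7 rose and 2 fell, with Sox4, Robo1, Ly6d and Scd2 held higher and Lifr held lower. Over all tested genes 7.71% rose, 3.68% fell, 2.61% were held higher and 1.3% held lower. Without the pancreas-rich libraries 1 was held higher and none lower.

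The control groups differed from each other in 11 of 15338 genes (0.0717%), while 1753 differed at an unadjusted p below 0.05. Of the 11, 7 were also called in the mean comparison and 3 were held: Mup9, Mup13 and Moxd1, all higher in older oil livers and lowest in CCl4. DESeq2 called 140 genes between the oil groups. Me1, malic enzyme, had 67.4 to 168 (median 113) CPM in the month 2 oil livers, 28.6 to 75.9 (median 40.1) in the month 12 oil livers and 108 to 174 (median 142) in the CCl4 livers. The CCl4 livers overlapped the younger controls and all exceeded the older ones. The log2 fold change of Me1 was 1.62 (adjusted p = 6.5e-06) against month 12 oil and 0.28 (adjusted p = 0.48) against month 2 oil.

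Changes called against the mean but not held, and with the widest gap between control ages, ran in both directions. Cyp4a14, a PPAR alpha-induced fatty acid hydroxylase, had 3.73 to 118 (median 5.95) CPM in the month 2 oil livers, 0.180 to 7.80 (median 1.09) in the month 12 oil livers and 20.1 to 70.1 (median 26.1) in the CCl4 livers, and its log2 fold change was 0.47 (adjusted p = 0.75) against month 2 oil and 3.85 (adjusted p = 0.0017) against month 12 oil. Acot3, Mfsd2a and Ppp1r3g followed the same order, at 3.80, 2.99 and 3.25 against month 12 oil and 0.90, 0.85 and 1.60 against month 2 oil, where none passed. Gldn, gliomedin, had 0.109 to 0.542 (median 0.163) CPM in the month 2 oil livers, 0.495 to 6.76 (median 0.746) in the month 12 oil livers and 1.59 to 6.25 (median 3.90) in the CCl4 livers, and its log2 fold change was 4.02 (adjusted p = 0.00031) against month 2 oil and 0.96 (adjusted p = 0.32) against month 12 oil. Saa2, an inducible acute phase gene, had 13.8 to 528 (median 28.8) CPM in the month 2 oil livers, 42.5 to 8024 (median 145) in the month 12 oil livers and 8.08 to 60.2 (median 16.7) in the CCl4 livers. Month 12 oil replicate 4 held 8024 CPM, and Saa2 passed against month 12 oil (-6.00, adjusted p = 0.0041) and not against month 2 oil (-2.23, adjusted p = 0.25). Saa1 and Tff3 were likewise lower than month 12 oil alone, at -4.76 and -4.38, Pitx3 also (-3.03), and Pnldc1 was lower than month 2 oil alone (-2.69).

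Between CCl4 month 2 and month 6, 77 of 15338 genes changed (0.502%), 42 higher and 35 lower at month 6, and 1395 differed at an unadjusted p below 0.05. Without month 2 CCl4 replicate 6, the library with the highest summed intestine markers of its group (1180.2 CPM), the number was 12, and it was 16 to 48 without CCl4 month 6 replicate 1, 2, 3, 4 or 6. Of the held genes, 7 higher and 10 lower ones were among the 77. Cd163 had a median of 31.9 CPM at CCl4 month 2 and 4.45 at month 6, a change of -2.63 ± 0.23 (adjusted p = 8.9e-09). Timd4 changed by -1.95 (adjusted p = 0.027), Hhip by -1.66 (adjusted p = 8.1e-05), Slco1a1 by -1.33 (adjusted p = 0.025) and the ribonuclease gene Rnase4 by -0.87 (adjusted p = 0.04) over the same interval. Cdh19, Sytl5, Fam198a, Fbn2 and Peg10 rose between the months, by 2.31, 1.93, 1.5, 1.41 and 1.40. Cyp2c67, held lower against oil, was higher at month 6 than at month 2 of CCl4 by 1.09 ± 0.21 (adjusted p = 0.01).

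Between CCl4 month 6 and month 12, 6007 of 15338 genes changed (39.2%), 3160 higher and 2847 lower at month 12. The counts of held genes that follow stand beside these counts over all tested genes. No difference between them was tested. Of the 401 genes held higher at month 6, 137 were higher still and 28 lower at month 12. Of the 199 held lower, 79 fell further and 35 rose. Mup7, Mup11, Mup12, Mup1 and Hsd3b5 had the deepest further falls among the named held genes, with log2 fold changes of -7.74, -6.06, -5.89, -5.07 and -6.59. Mup18 and Mup10, uncalled at month 6, had medians of 252 and 362 CPM at month 12 and changed by -4.00 (adjusted p = 3.6e-08) and -4.27 (adjusted p = 1.6e-08). Cyp2a4, Ubd, Ptgds, Cbr3 and Fam19a2 rose, by 9.45, 5.81, 5.36, 5.25 and 5.00. Sult2a2 went from 18 to 1929 counts summed over 6 livers. Ptgds and Fam19a2 were held lower at month 6 and had medians of 8.63 and 7.31 CPM at month 12. The month 6 fall of Ptgds was held in 5 of the 18 fits that left out 1 library. Against the oil mean it did not pass with limma-voom (-2.62, adjusted p = 0.24) or without the pancreas-rich libraries (-1.91, adjusted p = 0.17). Cd163 stayed at a median of 4.54 CPM, with no call between the months (0.095, adjusted p = 0.78). Each of these comparisons shares the CCl4 month 6 livers with those above.

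Promoter letters were counted as a description. In the first RefSeq window of each gene, 250 bases before to 50 after the start, a STAT5 word (TTCNNNGAA) was present in 807 of 11151 tested genes with a window (7.24%), in 29 of 301 held higher (9.63%) and in 7 of 142 held lower (4.93%). An AP-1 word (TGANTCA) was in 5.6%, 8.64% and 7.75% of the same sets. The antioxidant response element core (TGACNNNGC) was in 14.5%, 15.9% and 16.9%. Both strands were searched, and an AP-1 word can overlap the antioxidant core. No share was tested.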

How the data were processed

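RNA of whole livers was extracted with TRIzol, depleted of ribosomal RNA and sequenced with a stranded TruSeq protocol on a HiSeq 2500 as pairs of 125 bases, per the labels' protocols. The deposited values are raw counts per gene symbol made by the authors with BioJupies, per the labels, and the submitters' processing notes name mm10, edgeR 3.30.3 and limma 3.44.3. The members and gene lists were chosen with earlier results of these data known. Of 32544 symbols, 15338 passed edgeR's low-count filter, which used all 6 groups. edgeR 4.0.16 in R 4.3.3 fitted a quasi-likelihood model to all 36 libraries in 6 groups with TMM factors (0.781 to 1.17 in the compared groups), and contrasts gave the comparisons, with Benjamini-Hochberg adjustment over all tested genes at 0.05. A held gene passed in 3 comparisons that share the CCl4 livers. CPM values are scaled by the TMM factors. Named genes were, per direction, the 12 largest held and fully separated changes with at least 1 CPM, a panel of 30 genes, the 3 lowest p-values and the members called against the median in each of 52 lists, and 5 genes per direction with the widest gap between oil groups or the largest change between CCl4 months; others were named after their values were seen. No 2 libraries of a group were duplicates (lowest chi-square per degree of freedom 22.9 over 45 pairs). On simulated data with 15202 genes, 90 of 100 genes changed by 1 log2 unit were called against the oil mean. Of the same 100 genes 86 were held, with 11 false calls and 0 false held genes. The changed genes were drawn only from genes above a minimum mean count, so the 90 and 86 do not cover genes of low count. All groups otherwise had the same mean, without a difference between the oil groups. Whether these rates apply to the liver libraries was not tested. Alternatives used library totals, RLE factors, other filters, DESeq2 1.42.0, limma-voom 3.58.1, other references, the replicate number as a block, and each library left out. Gene positions are from GENCODE on mm10, matched by symbol.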

Additional observations from a re-analysis of the deposited data

Results flagged for a closer look

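For 50 genes named above, each group of 6 livers was checked for 1 liver far from the other 5, and 29 values stood apart in 150 groups (19.3%). The cut-off marks about 1 in 20 groups when values are independent and normally distributed. These were untransformed CPM of genes chosen with results known, and the same livers recur. The share therefore cannot show an excess over chance. CCl4 month 6 replicate 2 was the highest of its group in 8 of the 29 values: Cd163 (8.74 CPM), Cd63 (32), Lpl (136), Col1a1 (77.2), Col3a1 (533), Lum (76.0), Ly6d (31.8) and Anxa5 (142). Month 12 oil replicate 2 was the highest of its group for Cd63 (12.7 CPM), Lum (39.6), Mmp2 (13.6) and Pdgfrb (18.9).

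Month 2 oil replicate 6 was the highest of its group for Col1a1 (29.1 CPM), Mmp2 (6.47) and Gldn (0.542). Month 2 oil replicate 5 was the highest for Cyp2c37 (516 CPM), Adipoq (4.15), Cyp4a14 (118) and Cyp2a4 (1.14). In the same group replicate 1 was the highest for Cyp2c69 (17.6 CPM), replicate 3 was the highest for Saa2 (528) and replicate 2 was the lowest for Fbn2 (0.0440).

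Among the month 12 oil livers, replicate 4 was the highest for Saa2 (8024 CPM) and Tinag (0.542), replicate 3 was the highest for Gldn (6.76) and replicate 5 was the lowest for Hhip (5.09). Among the CCl4 month 6 livers, replicate 1 was the highest for Adipoq (0.237 CPM), replicate 4 was the highest for Tinag (3.48) and replicate 3 was the lowest for Cyp2a4 (0.370).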

How the results depend on the processing

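Of the 600 held genes, 290 (181 higher, 109 lower) were held in all 18 fits that left out one library, and 99 of these (46 higher, 53 lower) also under all 11 other settings. Leaving out one library gave 1049 to 2376 genes against the oil mean, 673 to 1499 against month 2 oil, 766 to 1757 against month 12 oil, 354 to 913 held, 4 to 28 between the oil groups, 12 to 111 between CCl4 months 2 and 6 and 283 to 470 with full separation of the livers. Library totals in place of TMM gave 9061 genes against the oil mean, 5124 against month 2 oil, 8918 against month 12 oil, 183 between the oil groups and 4393 held (4281 higher, 112 lower, 510 of them among the 600). Of the named genes 3 changed sign there: F10 was at 0.0072, Prdx4 at 0.030 and Sh3bgrl2 at 0.026. The fit of the 18 libraries alone held 613 genes (335 higher, 278 lower), 460 of them among the 600.

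Between the oil groups a filter of 1 CPM in 6 libraries gave 26 genes, DESeq2 140, limma-voom 17 and the replicate block 19. Between CCl4 months 2 and 6 limma-voom gave 38 genes and the replicate block 50. Replicate numbers did not pair the samples (correlations of same-numbered deviations from -0.30 to 0.27), and with the replicate block 578 genes were held. A reference that included the 6 month 0 control libraries gave 3320 genes. There Timp1, Lox and Clec4f passed, and other named genes lost their calls. These were Atp6v0d2 (0.58, adjusted p = 0.090), Cyp2e1 (-0.53, adjusted p = 0.089), Mup8 (-0.97, adjusted p = 0.068) and Spp1 (0.61, adjusted p = 0.19). Sh3bgrl2 (-0.14, adjusted p = 0.22) and Pitx3 (-1.10, adjusted p = 0.16) were lost as well. Held genes numbered 254 at an adjusted p below 0.01 and 227 with at least 2-fold in each comparison.

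Settings added after the data were seen left out libraries that stand apart. Without the 2 oil libraries, 5 genes differed between the oil groups. Without month 2 CCl4 replicates 1 and 6, 20 genes differed between CCl4 months 2 and 6. Without the 7 libraries of over 10000 CPM of pancreas transcripts, 716 genes were called against the oil mean, 322 against month 2 oil, 483 against month 12 oil, 3 between the oil groups and 151 held (59 higher and 92 lower, beside 401 and 199). The cause of these differences was not tested, beyond fewer samples in the fits that leave libraries out.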
